A study of Mus musculus with 39 samples.

Results

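Binding of the glucocorticoid receptor (GR) with both hormones was compared between 7438 cells, which are mouse mammary cells, and 7438 cells that also carry Afos. The members were chosen by sample and treatment: the GR list of 7438 whose name gives both hormones, and the 2 GR lists of 7438 Afos with dexamethasone plus estradiol, 3 of the 39 samples of the study and 3 of its 24 deposited site lists. The 7438 list held 9503 sites, and the 7438 Afos lists held 14160 sites in replicate 1 and 10309 in replicate 2. In all of these cells GR fused to GFP and the estrogen receptor (ER) fused to Cherry are made from a tetracycline-regulated promoter, and in 7438 Afos the labels place Afos under such a promoter too. Cells were given 100 nM dexamethasone (Dex, a synthetic GR ligand) and 100 nM estradiol (E2, the natural ER ligand) for 30 min before ChIP-seq with GR antibodies. The study mapped both receptors with each ligand alone, with both and with none, to see how the receptors affect each other's occupancy of the genome.

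The sample label of the 7438 list disagrees with its name. The label says untreated, while the list is named for both hormones, and the list filed under the label of both hormones is named untreated and held 143 sites. The names were followed here, for GR and for the ER list used below, whose label disagrees in the same way. The overlaps with the 7438 Afos lists do not settle the treatment. The 143 sites were present in the 7438 Afos lists of both hormones at 60.1% and 75.5% and in the untreated ones at 26.6% and 56.6%. The untreated 7438 Afos lists held only 95 and 315 sites, so they could cover few of the 9503 (0.684% and 2.16%) under either reading. The 7438 GR list with Dex alone, whose name and label agree, held 12084 sites and 81.1% of the 9503. This overlap and the lengths of the lists go with the name rather than the label. The lists carry no readout of Afos itself, so its presence in the cells was not checked. Sequencing depth is unknown, since only called sites were given, without totals of reads.

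GR is a steroid-activated transcription factor that enters the nucleus with its ligand and binds DNA at its own response elements or alongside other factors. AP-1, formed by proteins of the Fos and Jun families, binds many of the regions that GR uses in mouse mammary cells and is known for keeping such regions accessible. An engineered protein of the name A-Fos pairs with Jun and keeps it from binding DNA. The labels do not explain the name Afos, and AP-1 binding was not measured in the lists used here.

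Most GR sites of 7438 cells were found again in 7438 Afos. A site counted as found when it overlapped a site of the other list by at least 1 bp. Of the 9503 sites of 7438, 6716 were found in replicate 1 of 7438 Afos (70.7%, exact binomial 95% interval 69.7 to 71.6%) and 6906 in replicate 2 (72.7%, 71.8 to 73.6%), a mean of 71.7 ± 1.41% (SD, n = 2 lists). Both 7438 Afos lists held 6184 of the sites (65.1%), 1 of the 2 lists held 1254 (13.2%), and 2065 sites (21.7%) were in neither. At least 1 list therefore held 7438 sites (78.3%), a count that happens to equal the name of the cells. The longer list thus did not find more of the 7438 sites than the shorter one. The 7438 Afos lists reach lower maxD and z-score than the 7438 list. With the lower limits of the 7438 list applied to them, the mean found was 60.9%. With each list cut to its 9503 strongest sites, 61.5% were found in replicate 1 and 71.1% in replicate 2. The small SD above thus holds only for the lists at their own lengths. The binomial intervals cover counting error only, and sites are not replicates. The 7438 side is a single list, so the difference between the cell lines has no replicate check and no test. The labels do not say whether the 2 7438 Afos lists come from separate cultures, so the spread between them may be technical.

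The share found rose with the strength of the site in 7438. Strength was taken from maxD, the peak tag density that the authors give for a site on a scale they do not state, as its rank within the 7438 list. The list was divided into deciles of 950 or 951 sites. In the weakest decile, with maxD from 10.0 to 11.1, 46.1% of sites were found in replicate 1 and 42.4% in replicate 2. Shares were 48.0% and 44.2% in the next decile, 52.5% and 53.8% in decile 3, and 56.7% and 57.0% in decile 4. In decile 5, with maxD from 15.8 to 18.2, they were 65.7% and 71.2%. They went on to 72.1% and 79.5% in decile 6, 80.7% and 87.0% in decile 7, 89.5% and 94.3% in decile 8, and 95.6% and 97.5% in decile 9. All 950 sites of the strongest decile, with maxD from 57.2 to 527.6, were found in both lists. The strongest decile exceeded the weakest by 55.8 ± 2.60 percentage points (SD, n = 2 lists), and each step upward in decile was a step upward in share in both lists.

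**Figure D1:**
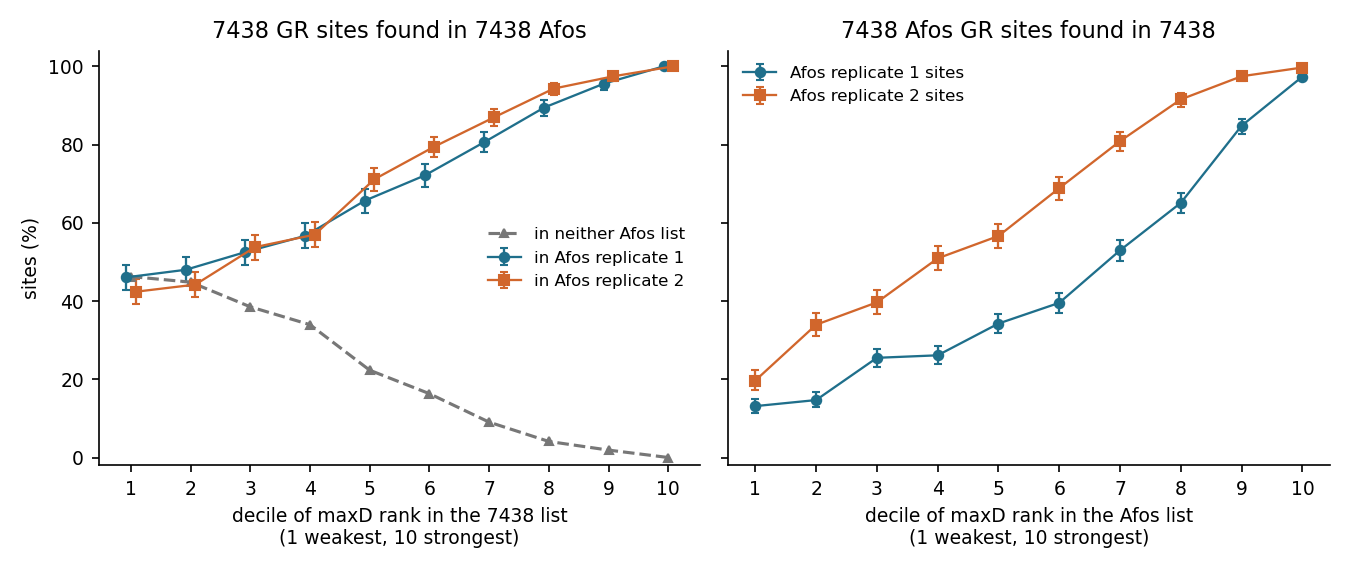
Left, the share of the 7438 GR sites of each strength decile found in each 7438 Afos list and, as triangles, the share in neither list. Right, the share of the sites of each 7438 Afos list found in 7438, by decile of their own list. Bars are exact binomial 95% intervals. Shares climb from 46.1% and 42.4% to 100% on the left, and the 2 lists part on the right.

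Sites that were in neither 7438 Afos list therefore lay mostly among the weaker ones. Their median maxD in 7438 was 12.9, against 23.7 for sites in both lists. Of the 2065, 440 were in the weakest decile, 39 in decile 8, 18 in decile 9 and 0 of 950 in the strongest decile, where counting allows a share of up to 0.388%. The strongest of them, at mm9 position chr2:157956389-157956539, had a maxD of 55.9 in 7438, just under the lower edge of the strongest decile. It overlapped ER in 7438 with both hormones (maxD 41.0) and was a GR site of 7438 with Dex alone (49.9), and none of the 7438 Afos lists of GR with Dex, GR with both hormones, ER with E2 or ER with both hormones held it. The next, at chr15:61378247-61378397, had a GR maxD of 52.5 with both hormones and 73.4 with Dex in 7438, and an ER maxD of 44.3 with both hormones, and it too was in none of those 7438 Afos lists. The leading absent sites without ER were at chr11:3053819-3053969 (GR maxD 45.4 with both hormones and 94.2 with Dex in 7438) and chr3:60435241-60435391 (41.3 and 67.6). Of the 18 absent sites in decile 9, 12 overlapped ER and 16 were GR sites of 7438 with Dex alone, beside 60.3% and 93.6% of all sites of that decile. Of the 39 in decile 8, 31 overlapped ER and 37 were such GR sites, beside 52.5% and 88.95% of all sites of that decile.

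Absent sites were seldom near misses. Only 122 of the 2065 (5.91%) lay within 500 bp of a site of either 7438 Afos GR list, and the median distance to the nearest such site was 12030 bp. GR was called at 158 of the 2065 (7.65%) in replicate 1 and at 18 (0.872%) in replicate 2 of 7438 Afos with Dex alone. At the 6184 sites in both lists, GR was called with Dex alone at 79.9% and 64.3%, and over all 9503 sites at 58.5% and 43.3%. These shares were not matched for strength, and the absent sites were weaker. In 7438 the GR list with Dex alone held 1604 of the absent sites (77.7%), 83.7% of those in both 7438 Afos lists and 81.1% of all sites.

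Of the 950 strongest GR sites of 7438, all of them found in both 7438 Afos lists, 770 carried ER as well. The site of highest maxD, at chr17:56248209-56248359, had 527.6 in 7438, and the 7438 Afos sites over it had 379.4 and 326.7. Its ER maxD was 31.2 in 7438 with both hormones and 29.2 and 8.66 in the 7438 Afos lists, and no ER list with E2 alone held it. At chr4:134745772-134745922 GR had 487.6 in 7438 and 296.4 and 275.8 in 7438 Afos, and ER was present with E2 alone in 7438 (69.3) and in both 7438 Afos lists (35.0 and 23.8). At chr11:101561873-101562023 (465.7, then 237.1 and 263.7) ER was found in 1 of the 2 7438 Afos lists with both hormones. At chr17:28649858-28650008, with 463.5 in 7438, the 7438 Afos values were 634.0 and 433.8, the second being the highest of its list. Tag densities of the 2 cell lines come from lists made differently, so these values show presence and order within a list, not a change between the lines.

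Strong GR sites with no ER were found too. The 5 strongest of these had maxD from 174.7 to 233.8 in 7438 and ranked at percentile 98.6 or above. The first, at chr2:167686160-167686310, had 233.8 in 7438 and 159.6 and 167.0 in 7438 Afos, with 340.5, 206.7 and 118.5 in the 3 lists with Dex alone. The second, at chr4:149353932-149354082, had 222.6, then 85.5 and 100.4, and ER was called there in 7438 with E2 alone (10.1). No 7438 Afos ER list with E2 or with both hormones held any of the 5.

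Strength kept its order in part at sites found in both cell lines. Across the 6716 shared sites of replicate 1, Spearman's rho between the maxD of the 7438 site and of the 7438 Afos site over it was 0.51, and across the 6906 of replicate 2 it was 0.68. Between the 2 7438 Afos lists, across the 6184 sites found in both, rho was 0.83. These are descriptions across sites, which share a library on each side. A 7438 Afos site is a wider interval and sometimes covered several of the 150 bp sites of 7438: 288 of the 6422 sites of replicate 1 did so, and 311 of the 6591 of replicate 2. In both lists rho was higher at sites with ER in 7438 (0.57 and 0.77) than at sites without (0.39 and 0.59). Sites with ER were more often strong, so the 2 groups differ in their spread of strength, and rho was not matched for it.

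ER was present at many of the GR sites of 7438, and more often at the strong ones. The ER list of 7438 with both hormones overlapped 4469 of the 9503 GR sites (47.0%). The share was 33.4% in the weakest decile, 42.7% in decile 5, 60.3% in decile 9 and 81.1% in the strongest decile. Without regard to strength, GR sites with ER were found in 7438 Afos more often than GR sites without ER. In replicate 1, 3504 of 4469 sites with ER (78.4%) and 3212 of 5034 without (63.8%) were found. In replicate 2 the numbers were 3373 (75.5%) and 3533 (70.2%).

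Averaged within deciles of strength, the difference between sites with and without ER had opposite signs in the 2 7438 Afos lists. With equal weight for each of the 10 deciles, sites with ER were found 5.24 percentage points more often in replicate 1 (95% interval 3.54 to 6.94). In replicate 2 the difference, sites with ER minus sites without, was -5.21 points (-6.84 to -3.58). Over the 2 lists this is 0.016 ± 7.39 points (SD, n = 2), so the replicates do not give it a direction.

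The deciles show where the lists part, and single deciles reached 16.3 points in replicate 1. In the weakest decile 56.9% of 318 sites with ER and 40.6% of 633 without were found in replicate 1, and 37.4% and 44.9% in replicate 2. In decile 5 the shares were 71.9% with ER and 61.0% without in replicate 1, and 68.5% and 73.2% in replicate 2. In decile 8 both lists had less with ER: 86.8% against 92.5% in replicate 1 and 91.6% against 97.3% in replicate 2. In the strongest decile all 770 sites with ER and all 180 without were found in both lists. In replicate 1, 7 deciles had a higher share with ER, 4 of them with an interval above 0. Another 2 had a lower share, 1 of them with an interval below 0. In replicate 2, 9 deciles had a lower share with ER, 6 of them with an interval below 0.

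**Figure D2:**
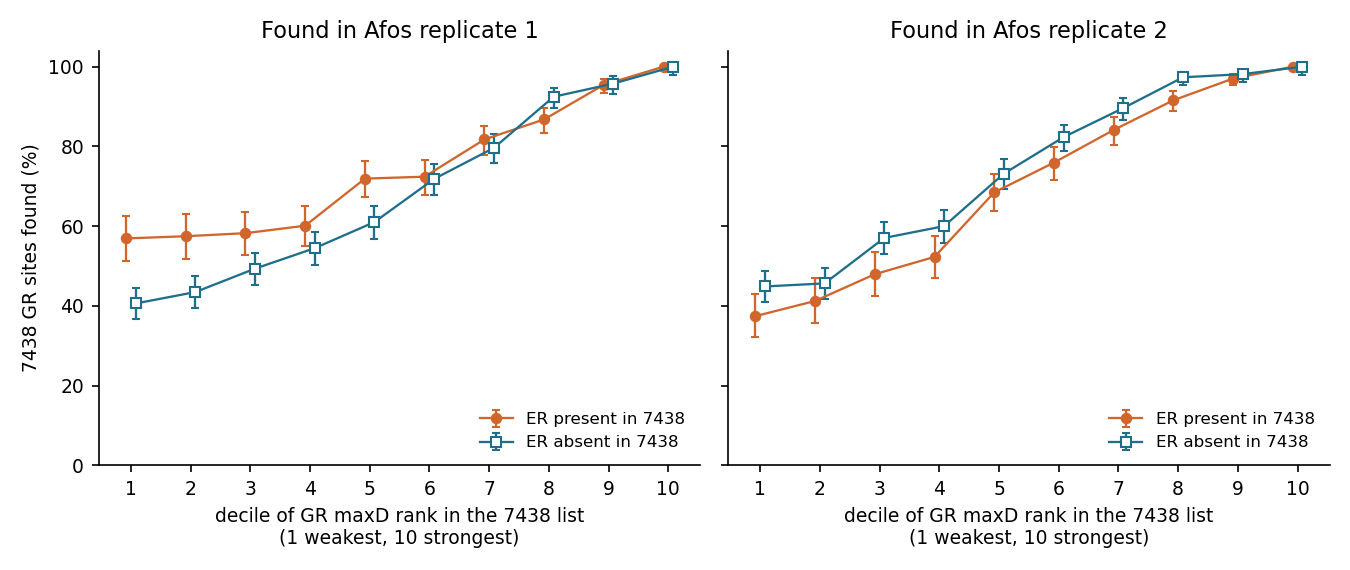
Share of 7438 GR sites found in replicate 1 (left) and replicate 2 (right) of 7438 Afos, by decile of GR strength in 7438, for sites with ER (filled) and without ER (open) in the 7438 ER list with both hormones. Bars are exact binomial 95% intervals. In the weakest decile ER sites lie above the others on the left (56.9% against 40.6%) and below them on the right (37.4% against 44.9%).

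The rank of the found sites parted in the same way. Among found sites of the weakest decile, the 7438 Afos site over those with ER had a median percentile of 58.3 in replicate 1 and that over those without ER 50.5, and in replicate 2 the medians were 33.7 and 39.4. In replicate 1 the median was higher with ER in 10 of 10 deciles. In replicate 2 it was lower with ER in 9 and higher in 1, the strongest (95.5 against 93.1).

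The sites that only 1 of the 7438 Afos lists held had different makeups. The 532 sites found only in replicate 1 overlapped ER in 7438 with both hormones at 65.6% (61.4 to 69.6%), ER with E2 alone at 46.2% and GR with Dex alone at 44.2%. The 722 sites found only in replicate 2 did so at 30.2% (26.9 to 33.7%), 17.3% and 95.3%. The ER lists of 7438 Afos with both hormones, which come from other libraries, held 250 of the 532 (47.0%) in replicate 1 and 119 (22.4%) in replicate 2, but 8 (1.11%) and 3 (0.416%) of the 722. Over all 9503 sites, the shares were 47.0% for ER with both hormones, 24.5% for ER with E2 alone and 81.1% for GR with Dex alone in 7438, and 27.0% and 16.5% for ER in the 7438 Afos lists. In all, 64.3% of the replicate 1 list was found in replicate 2, and 88.5% of the replicate 2 list in replicate 1. What sets these 2 libraries apart was not tested.

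Dividing the 7438 sites by whether GR was already called there with Dex alone showed where the replicates agreed. Of the 9503 sites, 2897 were in the 7438 GR list with Dex alone and had ER, 4807 were in it without ER, 1572 had ER and were not in it, and 227 had neither. Replicate 1 and replicate 2 found 78.9% and 83.5% of the first, 65.0% and 71.7% of the second, 77.5% and 60.6% of the third, and 37.9% and 38.8% of the last. The classes differed in strength, with median maxD of 31.0, 16.5, 14.8 and 11.3 in this order. Averaged over strength deciles, the first class had 63.2% and 69.2% and the second 69.25% and 75.4%. The third had 83.0% and 70.1%, and the last 57.0% and 55.4% over 9 deciles. Without regard to strength, the third class, GR sites of both hormones with ER and without a Dex call, is the one that replicate 1 found more often than replicate 2. Of its 1572 sites, 280 were only in replicate 1 and 15 only in replicate 2. In that class 74.8% of sites were ER sites of 7438 with E2 alone, against 37.1% of the sites with ER and a Dex call.

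**Figure D3:**
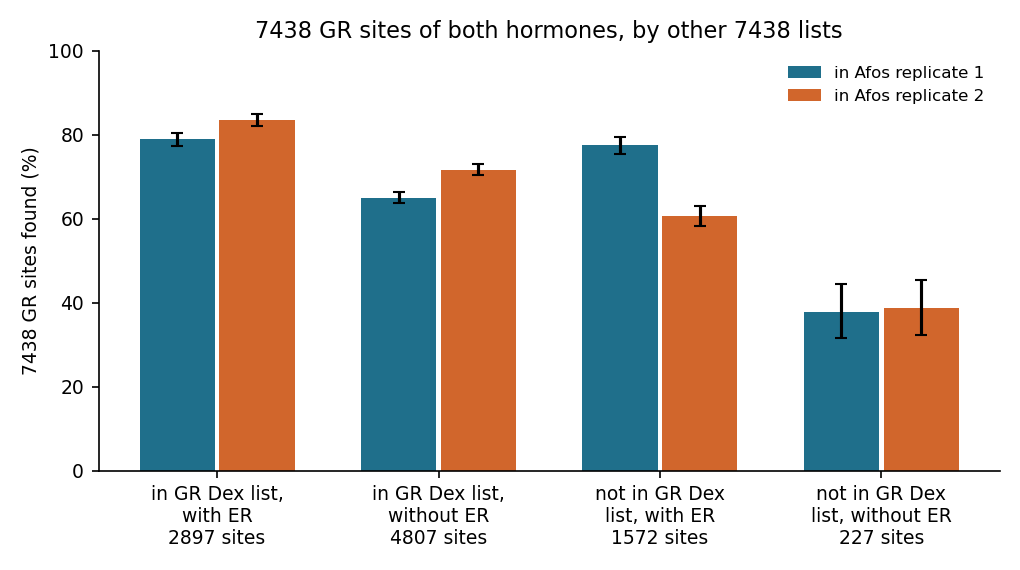
Share of 7438 GR sites of both hormones found in each 7438 Afos list, for the 4 classes made by the 7438 GR list with Dex alone and the 7438 ER list with both hormones. Bars are exact binomial 95% intervals, and the number of sites stands under each class. Shares are not adjusted for strength, in which the classes differ. In the third class replicate 1 (77.5%) lies above replicate 2 (60.6%).

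At sites that were in the GR list with Dex alone, the difference within deciles had the same sign in both lists. Sites with ER minus sites without ER came to -6.07 points in replicate 1 (-8.48 to -3.65) and -6.17 in replicate 2 (-8.54 to -3.81). Ranking by the z-score of the sites in place of maxD brought the mean of the 2 lists from -6.12 to -3.28. At sites not in the Dex list the difference was 24.5 points in replicate 1 (14.4 to 34.6) and 11.8 in replicate 2 (0.590 to 23.0). It covers the 9 deciles that held both kinds and rests on the 227 sites with neither. Most of these were weak (median maxD 11.3), so equal weights lean on few sites in the upper deciles, and the intervals may be too narrow. The lower limits of the 7438 list gave 18.9 and 7.06 points, and ER sites from the median maxD upward 17.3 and 7.03. Ranking by z-score gave 25.8 and 12.2, and 20 strength classes 27.1 and 13.7. Within deciles and among sites with ER, those in the Dex list were found less often in replicate 1 (-19.8 points, -22.5 to -17.2), and the interval in replicate 2 included 0 (-0.915, -3.73 to 1.90). Among sites with ER, those that ER also held with E2 alone were found less often within deciles in both lists (-5.95 points, -8.59 to -3.31, and -11.9, -14.5 to -9.32).

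The share found rose with the strength of ER at the site in replicate 1, and no such order was seen in replicate 2. GR sites with ER were placed by the decile of the ER site in the 7438 ER list, and shares were averaged over GR deciles with equal weight. From the weakest to the strongest ER decile, the share found in replicate 1 went from 60.4% (55.1 to 65.7%, 241 sites) to 86.0% (83.2 to 88.8%, 1021 sites). In replicate 2 it was 70.1% (65.0 to 75.3%) and 67.0% (63.7 to 70.3%), and the 10 shares lay between 67.0% and 72.0%.

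At sites where 7438 had both receptors, ER was found more often in 7438 Afos where GR was found. Of all 11982 ER sites of 7438 with both hormones, 41.3% were found in the ER list of 7438 Afos replicate 1 and 20.2% in that of replicate 2. At the sites that also had GR in 7438 and where GR was found in replicate 1, ER was found in the ER list of the same number at 2204 of 3504 (62.9%, 61.3 to 64.5%). Where GR was not found, ER was found at 89 of 965 (9.22%, 7.47 to 11.2%). In replicate 2 the numbers were 1346 of 3373 (39.9%, 38.3 to 41.6%) and 144 of 1096 (13.1%, 11.2 to 15.3%). Within deciles of GR strength the difference was 62.4 points (60.0 to 64.7) in replicate 1 and 31.3 (28.2 to 34.4) in replicate 2, over 9 deciles, since in the strongest none was missing. Within deciles of ER strength it was 39.2 points (37.0 to 41.4) and 18.1 (16.5 to 19.7). Between lists of different numbers it was also above 0: 41.5 points within GR deciles for GR replicate 1 with ER replicate 2, and 39.4 for GR replicate 2 with ER replicate 1.

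At weaker GR sites a found GR came with a found ER more often than at stronger ones. In the weakest decile ER was found at 81.2% of the 181 sites where GR was found in replicate 1, and in the strongest decile at 53.2% of 770. In replicate 2 the shares were 51.3% of 119 and 38.7% of 770. These shares were not adjusted for the strength of ER at the site. Where GR was not found, the share with ER in the list of the same number stayed at or below 16.0% in every decile. With lists of different numbers, ER was found in replicate 1 at 326 of the 1096 sites where GR was not found in replicate 2 (29.7%), and in replicate 2 at 31 of the 965 where GR was not found in replicate 1 (3.21%). Counting a receptor as found when at least 1 of its 2 lists with both hormones held it, 2235 of the 4469 sites had both receptors in 7438 Afos, 1487 (33.3%) had GR without ER, 82 (1.83%) had ER without GR and 665 (14.9%) had neither. The median percentile of ER strength in 7438 was 85.7 at sites with both and 44.6 at sites with GR alone, and the GR percentiles were 61.9 and 75.7.

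**Figure D4:**
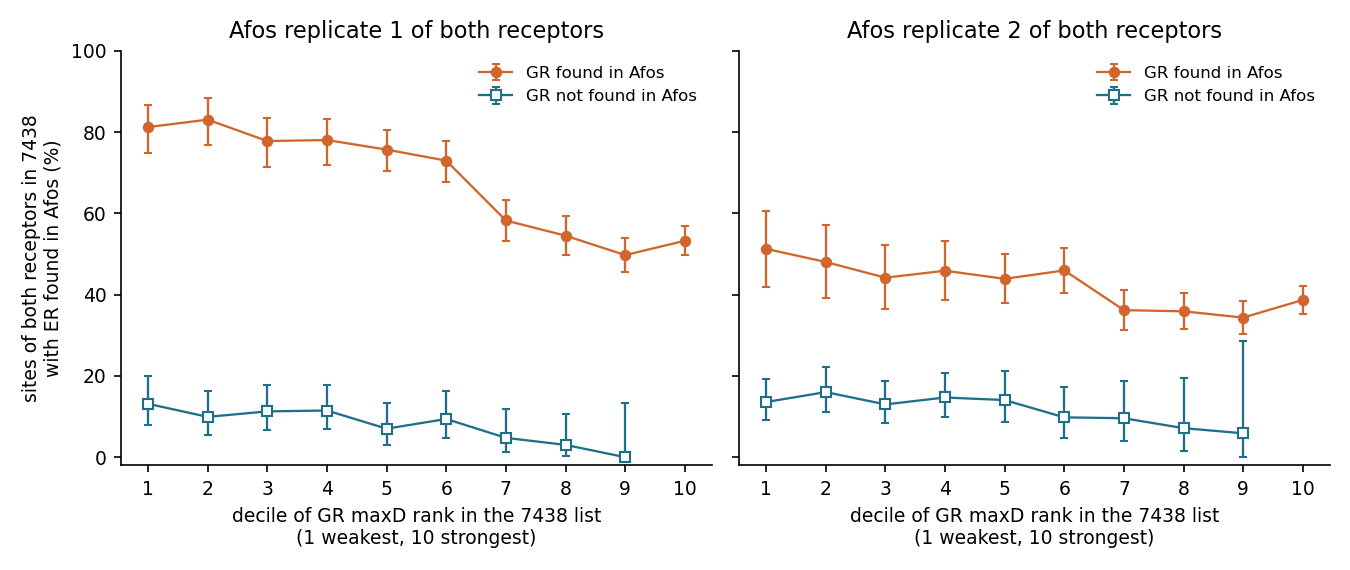
At GR sites of 7438 that also had ER, the share with ER found in 7438 Afos where GR was found (filled) and where it was not (open), by decile of GR strength, with lists of both receptors of replicate 1 on the left and replicate 2 on the right. Bars are exact binomial 95% intervals. In the weakest decile the shares are 81.2% and 13.1% on the left and 51.3% and 13.6% on the right, and in the strongest decile no site lacked GR.

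Position along the genome went with finding a site as well. The 1480 sites of 7438 that lay over 100000 bp from the next GR site of the list were found at 77.6% (75.8 to 79.5%) in replicate 1 and 82.4% (80.8 to 84.0%) in replicate 2, averaged over strength deciles. The 3216 sites that lay 1000 to 10000 bp from the next were found at 65.4% (63.9 to 66.9%) and 66.1% (64.7 to 67.6%). Isolated sites thus stood 12.2 points (9.86 to 14.6) and 16.2 points (14.1 to 18.4) above these neighbouring sites within deciles. The difference held at sites with ER (10.6 and 16.8 points) and at sites without ER (13.7 and 15.4 points). Sites under 1000 bp from the next lay between, at 70.0% and 74.4%, and several of these can fall in 1 site of 7438 Afos. The isolated sites were the weaker ones by median maxD (16.5 against 19.9) and carried ER less often (38.6% against 52.1%).

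**Figure D5:**
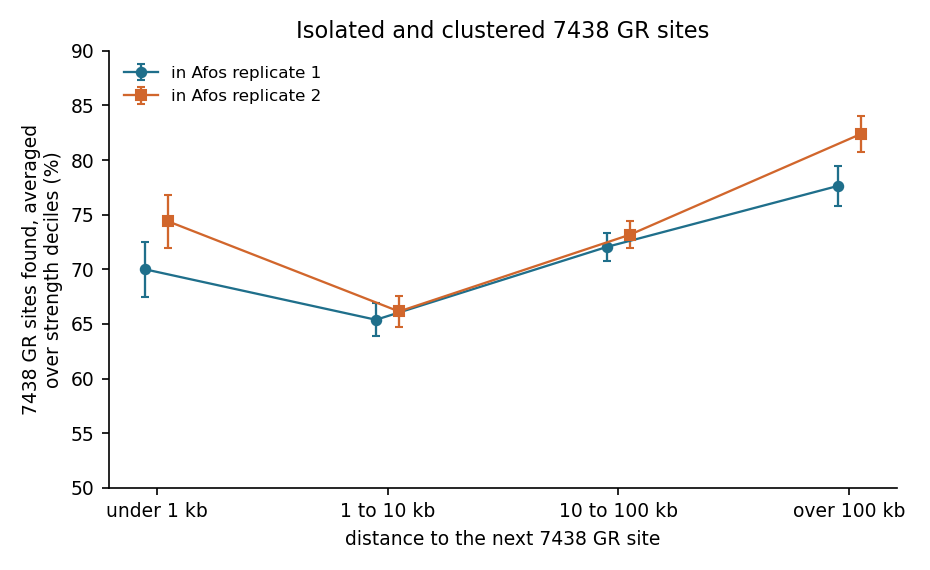
Share of 7438 GR sites found in each 7438 Afos list, averaged over strength deciles, by distance to the next GR site of the 7438 list. The vertical axis starts at 50%, and bars are 95% intervals. Sites over 100 kb from the next stand highest (77.6% and 82.4%) and sites at 1 to 10 kb lowest (65.4% and 66.1%).

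The chromosomes spanned a narrower range of shares than the strength deciles. The share found in replicate 1 ran from 65.3% on chromosome 15 (544 sites) to 76.1% on chromosome X (92 sites), and in replicate 2 from 68.6% on chromosome 15 to 85.9% on chromosome X. The interval for chromosome X, 66.1 to 84.4% in replicate 1 and 77.0 to 92.3% in replicate 2, included the whole-list share in the first and lay above it in the second.

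Seen from 7438 Afos, many GR sites had no counterpart in 7438 with both hormones. Of the 14160 sites of replicate 1, 6422 were in the 7438 list (45.4%), and of the 10309 of replicate 2, 6591 (63.9%), a mean of 54.6 ± 13.1% (SD, n = 2 lists). At their own lengths the 2 lists were thus further apart in this direction than in the other. With each list cut to its 9503 strongest sites, that contrast was gone. The shares were then 58.6% and 67.8% in this direction, and 61.5% and 71.1% in the other. The share rose from 13.1% in the weakest to 97.4% in the strongest decile of replicate 1, and from 19.7% to 99.7% in replicate 2. In the strongest deciles, 37 of 1416 and 3 of 1030 sites were not in 7438. Sites without a counterpart were narrower (median 542 against 689 bp, and 490.5 against 656 bp). Of sites in only 1 of the 7438 Afos lists, 10.2% of the 5055 of replicate 1 and 57.7% of the 1186 of replicate 2 were in 7438. Within deciles of the 7438 Afos list, sites with ER in 7438 were in the 7438 GR list more often, by 18.1 points (16.5 to 19.7) and 20.5 points (18.8 to 22.1). For sites with ER in 7438 Afos the difference was -5.58 points (-7.06 to -4.11) in replicate 1, and in replicate 2 its interval included 0 (0.177, -1.58 to 1.93).

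Part of the sites without a counterpart were GR sites of 7438 under Dex alone. Of the 7738 such sites of replicate 1, 3200 were also in replicate 2. Of these 3200, 1274 (39.8%) were in the 7438 GR list with Dex alone, 64.1% were in a GR list of 7438 Afos with Dex alone, and 27.6% overlapped ER in 7438 Afos with both hormones. At the 5905 sites that both 7438 Afos lists shared with the 7438 list of both hormones, these shares were higher, at 85.1%, 80.4% and 37.0%. Over all 9105 replicate 1 sites that were also in replicate 2 they were 69.2%, 74.7% and 33.7%. Over the whole replicate 1 list they were 49.55%, 55.71% and 32.05%. The 3200 sites were weaker than the 5905, with a median maxD of 15.3 against 26.5, and the shares were not matched for strength. In all, 1343 of the 3200 were in none of the 3 lists of 7438 examined, which are GR with both hormones, GR with Dex and ER with both hormones.

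The leading regions found in both 7438 Afos lists and not in 7438 with both hormones mostly had a GR call in 7438 with Dex, 4 of 5. At chr1:89953070-89953853 GR maxD was 99.9 and 56.9 with both hormones and 91.2 and 36.5 with Dex alone in 7438 Afos, and 7438 had a GR call there with Dex (16.2). At chr11:3072981-3073694 it was 92.0 and 53.9, with 54.4 in 7438 with Dex. The region at chr3:65331542-65332321 was the 1 of the 5 leading regions without a GR call in 7438 with Dex. GR there had 89.4 and 53.4 with both hormones and 44.8 and 17.8 with Dex in 7438 Afos, and ER was called in 7438 with both hormones (61.5) and in 7438 Afos with both hormones (45.0 and 11.3) and with E2 alone (29.2 and 14.4).

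Related comparisons of the same cell lines gave lower shares over the whole list, and there too the strongest decile exceeded the weakest. Of the 12084 GR sites of 7438 with Dex alone, 59.8% and 40.3% were found in the 2 7438 Afos lists of that treatment, which held 8873 and 5136 sites. Shares there ran from 26.4% and 7.78% in the weakest decile to 99.8% and 99.1% in the strongest. Of the ER sites of 7438 with both hormones, shares ran from 14.1% and 1.92% to 89.7% and 75.6%. The 7438 Afos lists of these comparisons were shorter than those of GR with both hormones, and the differences were not tested.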

How the data were processed

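ChIP-seq lists of called sites were used as deposited. Of 39 samples, 24 had a list; 16 lists were used, 3 of them for the main comparison. Per the submitters' processing notes, the build was mm9 and CASAVA 1.8 was used. Which aligner, site caller, control and threshold were used is not given in the sources used here, nor is whether the single 7438 list joins 2 replicates. Per the file headers, the deposited signal is tag density, as maximum (maxD) and average over the site. The deposited score is a z-score. Deposited p-values of the 7438 Afos lists were not used. The lists were made differently: 7438 sites were all 150 bp wide with maxD of at least 10.0 and z-score of at least 15.0, while sites of the 2 7438 Afos lists of GR with both hormones were 251 to 5863 bp wide with maxD from 1.20 and z-score from 10.7. Site numbers in the 7438 list run to 12859 for 9503 sites. Positions are the lists' own, and whether they count from 0 or 1 is not stated.

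Groups came from the labels, except that the 7438 lists were taken by name. Found means an overlap of at least 1 bp. Shares carry exact (Clopper-Pearson) 95% intervals. Differences within deciles are equal-weight means over the deciles, with 95% intervals from binomial variances. No test was run, because 1 list stands against 2. The overlap and the within-decile difference were tested on simulated data. The members, classes and lists were chosen with earlier results of these data known. Named sites are the leading ones by maxD of each class (5 a class, by maxD percentile for 7438 Afos regions); the text gives some of them. Alternatives were other overlaps, limits, ranks and strata, equal list lengths, removal of untreated sites, the labels' reading, and each replicate left out. No gene is named and no sequence printed, because the reference tables are of another build. Python 3.11.15, NumPy 2.4.6, SciPy 1.17.1, pandas 2.3.3 and matplotlib 3.10.9 were used.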

Additional observations from a re-analysis of the deposited data

How the results depend on the processing

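No paired analysis was possible because the 7438 side is a single list. Of 69 values under 20 alternatives, 50 lay within 1 SD of the reported mean of the 2 lists. This count does not measure stability. With 2 lists, leaving out either one gives a value within 1 SD by construction, also for the ER difference, which changed sign. The SD was also wide where the lists part, at 7.39 points for ER and 13.1 points for the share of 7438 Afos sites found. The lower limits of the 7438 list, applied to 7438 Afos (9628 and 6972 sites left), gave 60.9% of 7438 sites found, 67.9% of 7438 Afos sites found, 70.4 points between the strongest and weakest decile, and -5.62 points for ER at sites in the Dex list. Equal list lengths gave 66.3% (61.5% in replicate 1 and 71.1% in replicate 2), 7438 sites from the median maxD upward 89.6%, finding in at least 1 list 78.3%, and finding in both 65.1%. With the 7438 list taken by its sample label (143 sites, with the ER list as before), 67.8% of its sites and 0.806% of 7438 Afos sites were found. The strongest decile then exceeded the weakest by 11.9 points on average (25.2 in replicate 1 and -1.43 in replicate 2), and the ER difference was 29.7 points. Each decile of so short a list holds few sites, so these differences are imprecise and the sign in replicate 2 gives no direction. Ranking by z-score gave 52.1 points between the extreme deciles, -3.28 for ER at sites in the Dex list, and 11.3 for isolated against neighbouring sites. All alternatives for ER split by the Dex list and for isolated sites were added after the data were examined. Quintiles gave 53.1 points between the extremes. Without strata the ER difference was 9.95 points. For ER at sites in the Dex list, 20 strength classes gave -6.28 and ER sites from the median maxD upward -6.32. The causes were not tested. Leaving out each 7438 Afos list gave 70.7 and 72.7% of 7438 sites found, 45.4 and 63.9% of 7438 Afos sites found, 53.9 and 57.6 points between the extreme deciles, -5.21 and 5.24 for ER, -6.17 and -6.07 for ER at sites in the Dex list, 11.8 and 24.5 at sites not in it, 12.2 and 16.2 for isolated sites, and rho of 0.51 and 0.68. Depth is unknown, and its part in these shares cannot be told apart from that of the list limits.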
